A study of Mus musculus with 10 samples.

Results

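The neuromuscular junction genes analysed here were the 5 genes for the subunits of the muscle acetylcholine receptor (Chrna1, Chrnb1, Chrnd, Chrne and Chrng) and 5 genes of the agrin pathway that clusters this receptor (Agrn, Lrp4, Musk, Dok7 and Rapsn). They were listed by name, with earlier results of these data known, and are 10 of the 37947 gene symbols in the expression table. Each gene was taken at its transcript of highest mean level in the 10 libraries. RNA was sequenced from the gastrocnemius, a mixed but mostly fast calf muscle, of C57BL/6 mice, with 5 libraries from young mice of 6 months and 5 from aged mice of 24 months. The methods describe the mice as male, neither group carried a transgene or was treated, and each library came from whole muscle. The values are log2 FPKM, that is, fragments scaled to transcript length and library depth, on a log2 scale, and an FPKM under 1 is listed as 0.

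The neuromuscular junction is the synapse at which a motor axon releases acetylcholine onto a muscle fiber. Agrin from the nerve binds Lrp4 on the fiber, Lrp4 activates the kinase MuSK with the adaptor Dok7, and rapsyn (Rapsn) then gathers the receptors under the nerve ending. In adult muscle the receptor holds alpha, beta, delta and epsilon subunits and is made mainly by the few nuclei below the synapse, whereas fetal and denervated muscle makes the gamma subunit in place of epsilon and transcribes receptor genes along the whole fiber.

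Of the 10 genes, 8 were above 0 in at least 1 library, 6 were above 0 in all 10 and 7 had a mean FPKM of at least 1 and were tested with limma, a linear model fitted to all 38059 transcripts at that level. Chrna1 and Chrnb1 were higher in every aged library than in every young one, at 2.52-fold and 1.83-fold, while Rapsn and Musk differed by 0.00 and 0.19 on the log2 scale. None of the 7 had a limma adjusted p under 0.05, and 0.00788% of all transcripts tested did (3 of 38059). With an unadjusted p under 0.05, 2 of the 7 were higher with age and 0 were lower, and over the 10161 genes tested at their highest transcript these shares were 6.05% and 0.876%. By the criteria of the study, a 2-fold difference and an unadjusted p under 0.05, 1 member was higher (Chrna1) and 0 were lower, against 0.846% and 0.0559% of the 12533 genes above 0. All aged libraries lay above all young ones in 2 members and below them in 0, against 2.08% and 0.344% of the genes tested. The median difference was 0.21 over the 7 members tested and 0.07 over all genes tested.

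The recovered depth was 19886361 to 34554354 reads per library, and both libraries numbered 3 stood apart. They were the deepest, at 34554354 reads (young) and 31783515 reads (aged), yet they had the fewest transcripts above 0, at 35024 and 29878 against 38855 to 43296 in the other libraries. Differences that moved by over 1.5 times without them are given beside the members and the abundant list genes they touch. The markers of fast fibers, which this muscle should hold, were abundant, with a summed FPKM of 110310 to 144020 in young and 97433 to 144030 in aged libraries. The 9 motor axon and neuron markers in the table, with Chat and Nefl among them, were listed at 0 in all libraries.

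**Figure D1:**
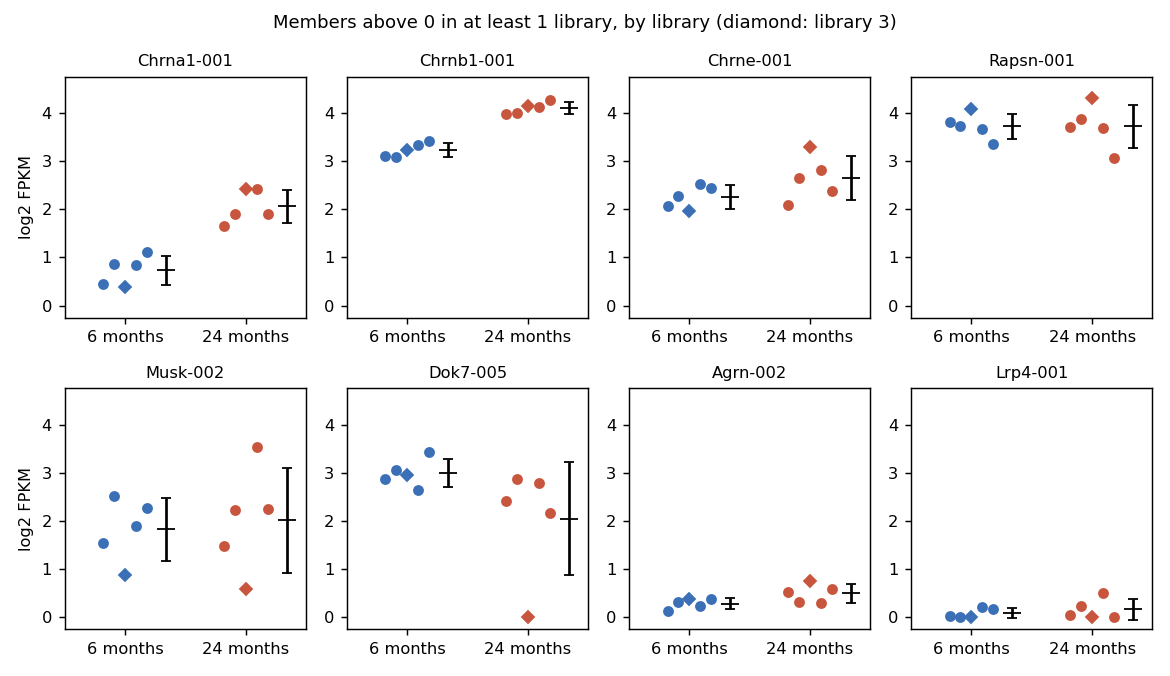
Log2 FPKM (vertical axis) of the 8 members above 0 in at least 1 library, in 5 libraries of mice of 6 months (blue) and 5 of 24 months (red). Points are libraries, diamonds are the libraries numbered 3 and black bars are the mean ± SD. The aged points lie above all young points for Chrna1 and Chrnb1 and overlap them in the other panels, and Dok7 is at 0 in aged library 3. Chrnd and Chrng were listed at 0 in all libraries and are not drawn.

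Chrna1 encodes the alpha subunit, which carries most of the acetylcholine binding site and is present in 2 copies of the receptor. In GRCm38 it lies on the minus strand of chromosome 2, from 73563215 to 73580338. Its single transcript (4386 nucleotides) had log2 FPKM values of 0.45, 0.86, 0.39, 0.84 and 1.11 in young libraries 1 to 5 against 1.66, 1.90, 2.42, 2.43 and 1.90 in aged libraries 1 to 5. The lowest aged value thus lay above the highest young one. The means were 0.73 ± 0.30 and 2.06 ± 0.35 (SD, n = 5 each), a difference of 1.33 (limma SE 0.21). The two-sided exact permutation p was 0.00794, the smallest that 5 libraries against 5 allow, and the limma adjusted p was 0.222. Of the 10161 genes tested, Chrna1 had rank 84 by the size of its increase in mean and rank 11 by its limma p. These values stood on 122 to 199 reads in young and 294 to 747 reads in aged libraries. Without both libraries numbered 3 the difference was 1.16.

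Chrnb1 encodes the beta subunit, which is phosphorylated when agrin activates MuSK. It lies on the minus strand of chromosome 11, from 69784036 to 69795943. Its full-length transcript (2155 nucleotides) had log2 FPKM values of 3.12, 3.08, 3.23, 3.34 and 3.41 in young libraries 1 to 5 against 3.98, 4.01, 4.15, 4.13 and 4.27 in aged libraries 1 to 5. The groups did not overlap and each varied little within itself. The means were 3.24 ± 0.14 and 4.11 ± 0.12 (SD, n = 5 each), and the difference was 0.87 (limma SE 0.14, exact permutation p = 0.00794, limma adjusted p = 0.180). Chrnb1 had rank 230 of the 10161 genes by the size of the difference but rank 10 by limma p. It was counted on 382 to 699 reads in young and 721 to 1213 reads in aged libraries.

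Chrne encodes the epsilon subunit of the adult receptor. It lies on the minus strand of chromosome 11, from 70614883 to 70619216. Its log2 FPKM (transcript of 1591 nucleotides) was 2.07, 2.27, 1.96, 2.53 and 2.45 in young libraries 1 to 5 and 2.10, 2.65, 3.29, 2.83 and 2.39 in aged libraries 1 to 5. The groups overlapped, with aged libraries 1 and 5 inside the young range and aged library 3 highest. The means were 2.26 ± 0.24 and 2.65 ± 0.45 (SD, n = 5 each), and the difference of 0.40 (limma SE 0.23) did not pass the test, with an exact permutation p of 0.127. The difference was 0.16 without both libraries numbered 3. Part of Chrne is overlapped on the opposite strand by 4930544D05Rik, listed at 0 to 0.76, and the library kit named in the methods does not mark strand, so reads from the shared stretch cannot be told apart.

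Chrnd, for the delta subunit, and Chrng, for the fetal gamma subunit, are neighbours on chromosome 1 (87190607 to 87200070 and 87204657 to 87212694, plus strand). Both were listed at 0 in all 10 libraries. An FPKM of 1 corresponds to 58.2 to 101 reads on the Chrnd transcript of 2925 nucleotides and to 55.3 to 96.1 reads on the Chrng transcript of 2780 nucleotides. A level below these numbers, or a difference between the ages below them, was not detectable. The summed FPKM of the receptor subunits was 14.2 to 18.3 in young and 23.2 to 32.9 in aged libraries. It came from Chrna1, Chrnb1 and Chrne alone. The ranges did not overlap, but Chrna1 and Chrnb1 are part of the sum, so this is not a separate result. In whole muscle, more fibers or nuclei making a transcript and more of it in each cannot be told apart.

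The promoters of the receptor genes are shown because receptor transcription at and outside the synapse is known to depend on short motifs there. E-boxes (CANNTG, which reads the same on both strands) are bound by myogenic factors such as MyoD and myogenin, and the N-box (CCGGAA, searched on both strands) is bound by the Ets factor GABP. The sequences are the 250 bases before the transcription start from RefSeq (GRCm38.p6), written 5′ to 3′ on the gene's strand, with motif matches in capitals. They are Chrna1 at chr2:73580339-73580588, Chrnb1 at chr11:69795938-69796187 and Chrne at chr11:70619195-70619444, all minus strand.
Chrna1: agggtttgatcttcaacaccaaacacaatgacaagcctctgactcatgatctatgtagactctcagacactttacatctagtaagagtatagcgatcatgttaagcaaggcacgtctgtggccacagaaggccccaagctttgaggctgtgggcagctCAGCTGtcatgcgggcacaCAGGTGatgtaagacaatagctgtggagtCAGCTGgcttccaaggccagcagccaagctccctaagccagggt
Chrnb1: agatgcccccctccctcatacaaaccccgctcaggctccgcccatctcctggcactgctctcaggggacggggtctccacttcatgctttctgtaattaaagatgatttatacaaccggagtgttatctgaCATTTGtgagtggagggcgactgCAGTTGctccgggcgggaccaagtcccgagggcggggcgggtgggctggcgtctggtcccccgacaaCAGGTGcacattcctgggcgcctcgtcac
Chrne: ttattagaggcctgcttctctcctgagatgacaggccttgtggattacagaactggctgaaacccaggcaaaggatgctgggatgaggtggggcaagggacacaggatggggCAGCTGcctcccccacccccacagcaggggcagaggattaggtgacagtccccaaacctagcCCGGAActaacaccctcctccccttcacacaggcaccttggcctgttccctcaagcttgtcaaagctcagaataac
Chrna1 held 3 E-boxes, 92, 73 and 44 bases before the start, and Chrnb1 held 3, at 119, 96 and 29 bases. Chrne held 1 E-box at 138 bases and 1 N-box at 76 bases. Promoters were found for 7 of the 10 members, 9 in all, of which 7 held an E-box. Chrng and Musk also held 3 E-boxes each, and the single N-box was that of Chrne. Of 32851 promoters of the same length, 66.2% held at least 1 E-box, 12.2% held at least 3 and 12.0% held an N-box, so a match of either kind is common. The transcripts of the binding factors, picked after the values were seen, overlapped between the ages. Myog was listed at 0 to 0.86 in young and 0.18 to 2.38 in aged libraries, Myod1 at 1.45 to 2.68 and 1.69 to 3.35, and Gabpa at 1.91 to 2.77 and 0.80 to 2.98. Myod1 was higher in the aged library of all 5 pairs of the same number, by 0.47 on average, with a limma p of 0.0105 with libraries paired and 0.212 without.

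The rows of shorter transcripts bore on Chrnb1 and Chrne in opposite ways. Chrnb1 had 3 further rows of 441, 486 and 740 nucleotides, annotated in GENCODE as a processed transcript and as retained introns. In the aged libraries other than number 3 these rows were at 3.17 to 4.07, and in aged library 3 they were at 0.28, 1.10 and 0.84. In each of them the aged libraries other than number 3 all lay above all young ones. With the mean of its rows taken in place of the highest one, the difference of Chrnb1 was 0.57 with a limma p of 0.191. The retained-intron rows of Chrne (641 and 518 nucleotides, at the 3′ end) were instead highest in aged library 3, at 3.89 and 3.30, against 1.44 to 1.96 and 1.06 to 1.43 in the other aged libraries. Rows of a gene share reads: the Chrne transcripts of 1591 and 1616 nucleotides held the same number of reads in young libraries 1 to 5 (136, 186, 214, 210 and 173), so they are not separate measurements.

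**Figure D2:**
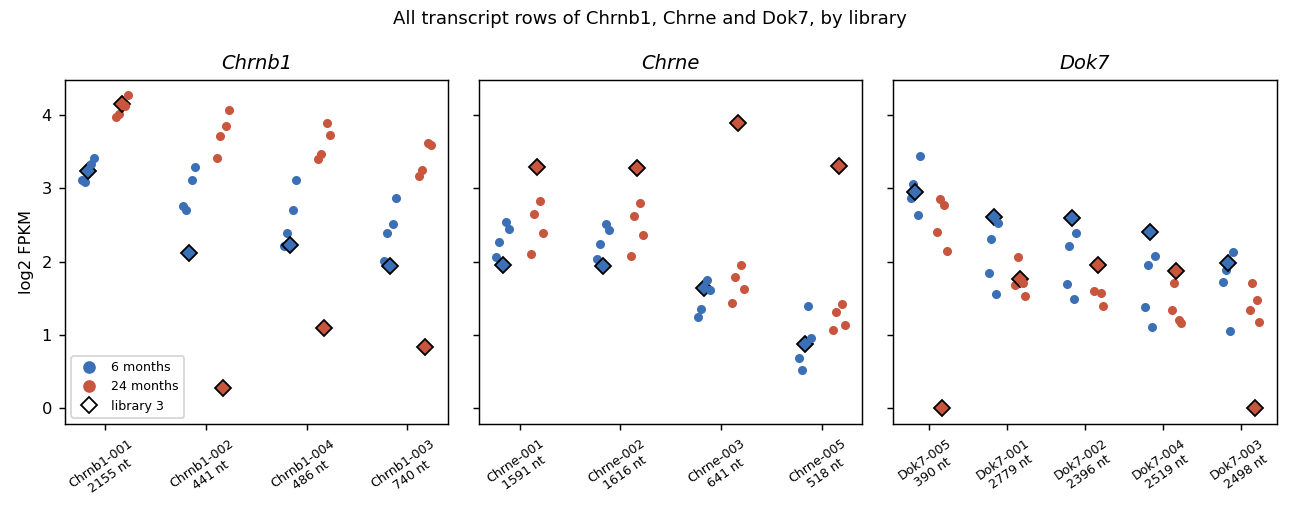
Log2 FPKM (vertical axis) of every transcript row of Chrnb1, Chrne and Dok7 in young (blue) and aged (red) libraries, with row name and length in nucleotides below. Points are libraries and outlined diamonds are the libraries numbered 3. In aged library 3 the short rows of Chrnb1 are at 0.28 to 1.10 and those of Chrne at 3.30 and 3.89, while Dok7-005 and Dok7-003 are at 0.

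Rapsyn, the scaffold that binds the receptor inside the fiber, was the member of highest mean level. Rapsn (chromosome 2, 91035620 to 91045729, plus strand) had log2 FPKM values of 3.82, 3.73, 4.08, 3.67 and 3.36 in young libraries 1 to 5 against 3.71, 3.88, 4.31, 3.69 and 3.07 in aged libraries 1 to 5. The groups covered nearly the same range, with library 3 highest and library 5 lowest at both ages. The means were 3.73 ± 0.26 and 3.73 ± 0.45 (SD, n = 5 each, limma SE of the difference 0.23, exact permutation p = 0.992). Without both libraries numbered 3 the difference was -0.055. Its 4 transcript rows differed by -0.02 to 0.01. Gm13778, which overlaps it on the opposite strand, was above 0 only in aged library 3, at 1.04.

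MuSK, the receptor kinase at the centre of the pathway, varied widely between libraries of the same age. Musk (chromosome 4, 58285960 to 58374303, plus strand) had log2 FPKM values of 1.53, 2.52, 0.87, 1.90 and 2.27 in young libraries 1 to 5 against 1.47, 2.23, 0.57, 3.53 and 2.25 in aged libraries 1 to 5. Library 3 was lowest at both ages and aged library 4 stood highest. The means were 1.82 ± 0.65 and 2.01 ± 1.09 (SD, n = 5 each), and the difference of 0.19 (limma SE 0.51) was smaller than either SD (exact permutation p = 0.770). Without both libraries numbered 3 it was 0.32. All 8 rows of the gene gave differences of 0.19 to 0.44, on largely the same reads. Of the 5 pairs of libraries with the same number, 1 had the aged library on top.

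Dok7, the adaptor that activates MuSK from inside the fiber, had a lower mean in aged muscle but did not pass the limma test. The gene lies on chromosome 5, from 35056766 to 35087839 on the plus strand, and its row of highest mean was a transcript of 390 nucleotides from its 5′ end (35056888 to 35066485). That row was at 2.86, 3.06, 2.95, 2.63 and 3.44 in libraries 1 to 5 of the young mice and 2.41, 2.86, 0, 2.78 and 2.15 in those of the aged mice. Aged library 3 was thus the only one at 0, and aged libraries 2 and 4 lay within the young range. The difference of means was -0.95 (limma SE 0.49, limma adjusted p = 1.000, exact permutation p = 0.0397), and without aged library 3 it was -0.44. Without both libraries numbered 3 the difference was -0.45. The values rest on 55 to 104 reads in young libraries and 35 to 71 in the aged libraries above 0. All 5 rows of Dok7 had a lower mean in aged libraries, by -0.95 to -0.33, and they share reads. A longer coding transcript, of 2779 nucleotides, was at 1.85, 2.31, 2.60, 1.56 and 2.53 in young libraries. In aged libraries it was at 1.69, 2.07, 1.76, 1.71 and 1.54, and the groups overlapped. The row of 2498 nucleotides, also annotated as coding, was at 0 in aged library 3.

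Agrin and Lrp4, the ligand and its receptor, were near the lower limit of the table. The Agrn values are of transcript in whole muscle, where the motor axon and neuron markers in the table were listed at 0. They do not measure agrin supplied by the nerve. Agrn (chromosome 4, 156165290 to 156197488, minus strand) was at 0.12, 0.30, 0.38, 0.22 and 0.36 in libraries 1 to 5 of the young mice and 0.52, 0.31, 0.74, 0.29 and 0.59 in those of the aged mice. The aged library lay above the young library of the same number in 5 of 5 pairs, but the groups overlapped and the difference of 0.21 (limma SE 0.14) had an exact permutation p of 0.0794. This row of 2071 nucleotides was counted on 46 to 110 reads. The longest rows of Agrn, of 6891 to 7379 nucleotides, were at 0 to 0.35. Lrp4 (chromosome 2, 91457511 to 91513779, plus strand) was at 0.02, 0, 0, 0.21 and 0.17 in libraries 1 to 5 of the young mice and 0.04, 0.24, 0, 0.50 and 0 in those of the aged mice. It was above 0 in 3 libraries of each age, its mean FPKM was under 1 and it was not tested with limma (exact permutation p = 0.484). Its transcript of 7926 nucleotides held 164 to 298 reads in the libraries above 0.

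FPKM is scaled to length, so levels could be ordered between genes, each at its row of highest mean. The place of Dok7 depended on its row of 390 nucleotides. Its row of 2779 nucleotides had means of 2.17 in young and 1.75 in aged libraries, below those of Chrne (2.26 and 2.65). From high to low mean log2 FPKM over all 10 libraries the order was Rapsn, Chrnb1, Dok7, Chrne, Musk, Chrna1, Agrn and Lrp4, with Chrnd and Chrng below the limit. The young libraries alone gave the same order of means, whereas in the aged ones the order was Chrnb1 (4.11), Rapsn (3.73), Chrne (2.65), Chrna1 (2.06), Dok7 (2.04), Musk (2.01), Agrn and Lrp4. Musk lay above Chrna1 in 5 of 5 young and 3 of 5 aged libraries, Dok7 above Chrne in 5 of 5 and 2 of 5, and Rapsn above Chrnb1 in 4 of 5 and 1 of 5. The tests below pool both ages and so do not show these shifts. Neighbours were compared within libraries by a two-sided exact sign-flip permutation test over the 10 libraries. Rapsn and Chrnb1 (p = 0.768), Dok7 and Chrne (p = 0.947), Chrne and Musk (p = 0.0645) and Musk and Chrna1 (p = 0.137) did not differ beyond their spread by this exact test. Chrnb1 lay above Dok7 in 9 of 10 libraries (p = 0.00586), Chrna1 above Agrn in 10 of 10 (p = 0.00195) and Agrn above Lrp4 in 9 of 10 (p = 0.0215, each by the exact sign-flip test). These 7 comparisons were not adjusted for each other. Agrn stood in them at its row of 2071 nucleotides. Its row of 7193 nucleotides had means of 0.03 in young and 0.09 in aged libraries. Those of Lrp4 were 0.08 and 0.16, so the order of Agrn and Lrp4 depends on the row taken.

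Distances between members within a library do not depend on library scaling. These gaps were chosen after the differences of Chrna1 and Chrnb1 were seen, so their tests only describe the pattern. Each gap holds Chrna1 or Chrnb1, so none is a result separate from their differences. Rapsn differed by 0.00 between the ages, so the changes of its gaps restate the differences of Chrna1 and Chrnb1. Of the 3 gaps between receptor subunits, that between Chrne and Chrna1 had an adjusted p under 0.05 and the other 2 did not. Chrne lay above Chrna1 by 1.62, 1.41, 1.57, 1.69 and 1.34 log2 units in young libraries 1 to 5 and by 0.44, 0.76, 0.87, 0.40 and 0.49 in aged libraries 1 to 5. The 2 groups did not overlap. The mean ratio of epsilon to alpha transcript was 2.88 in young and 1.51 in aged muscle, a change of -0.94 (exact permutation p = 0.00794, adjusted over the 5 gaps 0.0198). Rapsn lay above Chrna1 by 3.00 ± 0.55 in young and 1.67 ± 0.42 in aged libraries (SD, n = 5 each), again without overlap (exact permutation p = 0.00794, adjusted 0.0198). Rapsn lay 0.49 ± 0.36 above Chrnb1 in young libraries and 0.38 below it in aged ones, where the gap was -0.38 ± 0.51 (exact permutation p = 0.0159, adjusted 0.0265). Chrnb1 lay above Chrna1 by 2.51 ± 0.25 and 2.05 ± 0.32, with overlapping groups (exact permutation p = 0.0476, adjusted 0.0595), and above Chrne by 0.98 ± 0.19 and 1.46 ± 0.43 (exact permutation p = 0.0635, adjusted 0.0635).

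**Figure D3:**
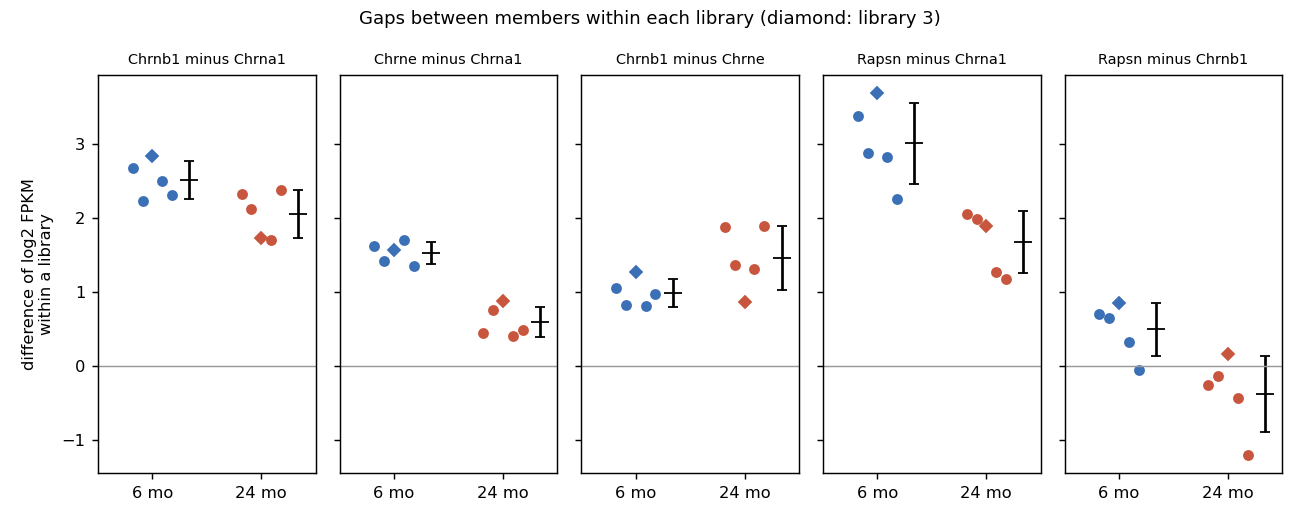
Difference of log2 FPKM between 2 members within each library (vertical axis) at 6 months (blue) and 24 months (red). Points are libraries, diamonds are the libraries numbered 3 and black bars are the mean ± SD. The gaps from Chrna1 to Chrne and to Rapsn are smaller in all aged libraries than in all young ones, and the other 3 gaps overlap.

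Other genes of the synapse are given by list, and the shares over all genes to read their counts against are 6.05% higher and 0.876% lower at an unadjusted p under 0.05. These shares hold for the unpaired fit to all 10 libraries only. They are not given for the fits with libraries paired by number or without both libraries numbered 3. Calls in those fits, here and below, thus have no share to be read against. Of 16 further nicotinic and muscarinic receptor genes, 15 were listed at 0 in all libraries, and Chrna10, a nicotinic subunit of inner ear hair cells, was at 1.54 ± 0.30 in young and 1.60 ± 0.63 in aged libraries (SD, n = 5 each, difference 0.06, or -0.13 without both libraries numbered 3). Of 29 genes for MuSK effectors and the postsynaptic scaffold, 23 were tested, 1 was higher with an unadjusted p under 0.05 and 0 were lower. This was Cttn, for the actin-binding protein cortactin, at 2.62 ± 0.09 and 3.00 ± 0.22 (exact permutation p = 0.0317, limma adjusted p = 1.000), and the most abundant was the chaperone gene Hsp90ab1, at 8.98 ± 0.26 and 8.77 ± 1.10 (difference -0.21, or 0.15 without both libraries numbered 3). Of 21 genes of the synaptic cleft matrix, 14 were tested and 0 were called in either direction (2 higher without both libraries numbered 3, Lama2 and Lama4, and 2 higher with libraries paired by number, Lama4 and Bgn), with Hspg2, for the basement membrane proteoglycan perlecan, the most abundant at 4.13 ± 0.61 and 4.00 ± 0.58. The median differences of these last 2 lists were 0.04 and 0.06, beside 0.07 over all genes tested.

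Of 12 genes for neuregulin signaling and synaptic transcription, 5 were listed at 0 in all libraries (Nrg1, Nrg2, Erbb2, Erbb3 and Erbb4) and 0 of the 6 tested were called, with a median difference of 0.10. The most abundant was Prkar1a, for a regulatory subunit of protein kinase A, at 4.66 ± 0.20 and 4.98 ± 0.15 (SD, n = 5 each, exact permutation p = 0.0397), and limma called it only with libraries paired by number. Of 17 genes for retrograde and trophic signals, 10 were tested, 2 were higher with an unadjusted p under 0.05 and 0 were lower, with a median difference of 0.14. With libraries paired by number 1 gene, Ntf5, was lower (by -0.44). Sirpa, for a membrane protein whose shed part promotes maturation of nerve endings, was at 0.76, 0.56, 0.50, 0.54 and 0.01 in young libraries 1 to 5 and 1.17, 0.85, 2.21, 2.20 and 1.40 in aged libraries 1 to 5. All aged values lay above all young ones, but macrophages make Sirpa as well (exact permutation p = 0.00794, limma adjusted p = 0.727). Fgfbp1, for a protein that releases fibroblast growth factors from the matrix, was at 2.41 ± 0.39 and 3.09 ± 0.44 (exact permutation p = 0.0397, limma adjusted p = 1.000), and the most abundant was Vegfa, at 4.71 ± 0.38 and 4.32 ± 1.61, with 1.53 in aged library 3 (difference -0.38, or 0.15 without both libraries numbered 3).

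The list of genes known to respond to denervation was written with earlier results of these data known. It held 17 genes, of which 11 were above 0 and 9 were tested. Of these 9, 5 were higher with an unadjusted p under 0.05 (Ankrd1, Cdkn1a, Nes, Gadd45a and Myh3), 0 were lower and 0 had an adjusted p under 0.05. With libraries paired by number there were again 5, with Myod1 in place of Myh3. The median difference was 0.56, beside 0.07 over all genes tested. Ankrd1, for a stretch-responsive sarcomere protein, was at 1.15, 1.02, 0.71, 0.78 and 0.82 in libraries 1 to 5 of the young mice and 2.55, 2.18, 2.80, 3.29 and 3.71 in those of the aged mice, without overlap (limma adjusted p = 0.0960). Cdkn1a, for the cell cycle inhibitor p21, was at 2.27 ± 0.67 and 4.15 ± 0.84 (SD, n = 5 each, exact permutation p = 0.00794), also without overlap. Nes, for the filament protein nestin, was at 2.60 ± 0.22 and 3.07 ± 0.25 (exact permutation p = 0.0159), and Gadd45a, a stress-response gene, at 4.58 ± 0.37 and 5.39 ± 0.69 (exact permutation p = 0.0476). Ankrd1, Cdkn1a and Gadd45a also respond to other stresses of muscle. Dach2, Runx1, Kcnn3, Gap43 and Sema3a were among the genes listed at 0 in all libraries. The most abundant gene, Myh8, for perinatal myosin, was at 5.83 ± 0.71 and 5.36 ± 1.25 (difference -0.48, or -0.21 without both libraries numbered 3), and Chrng, which also responds to denervation, was listed at 0.

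**Figure D4:**
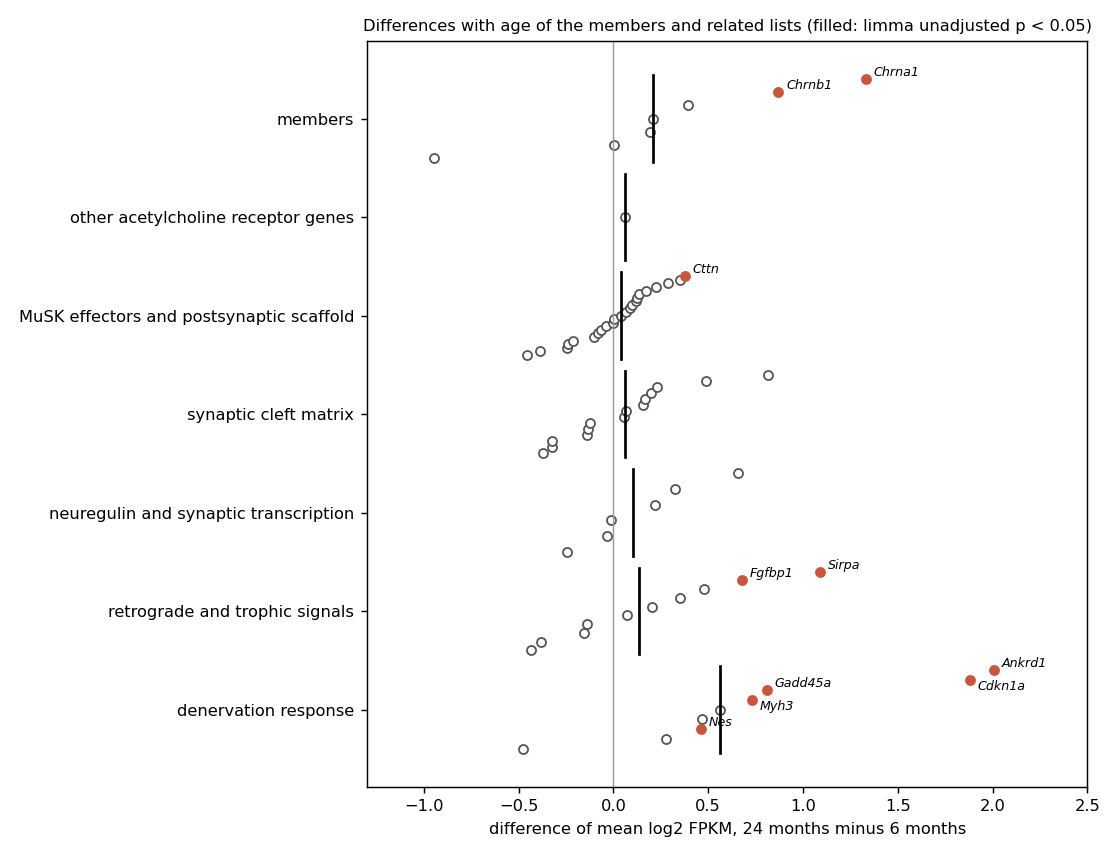
Difference of mean log2 FPKM between 24 and 6 months (horizontal axis) for each gene tested of the members and of 6 related lists (vertical axis). Each circle is a gene, filled where the limma unadjusted p is under 0.05, and black bars are list medians. The bar of the denervation list is at 0.56 and those of the other related lists are at 0.04 to 0.14. The member bar is at 0.21, with Chrna1 and Chrnb1 to its right.

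Markers of other cell types varied beside these results. Of 12 Schwann cell and nerve markers, 10 were above 0, Ngfr and Gfap were at 0, and the summed FPKM was 25.0 to 153 in young and 40.9 to 258 in aged libraries. Of the 4 macrophage markers tested, 2 had a higher mean with an unadjusted limma p under 0.05 (Cd68 and Lyz2) and 0 had an adjusted p under 0.05, with overlapping groups, and the sum was 13.0 to 29.5 in young and 22.0 to 96.5 in aged libraries. Of the satellite cell markers, Pax7, Myf5 and Calcr were at 0 and the sum was 3.83 to 5.75 and 4.07 to 7.10. Of the 6 fibroblast markers, all tested, 1 was lower at an unadjusted p under 0.05 (Col3a1, a fibrillar collagen gene, by -1.03), or 2 with libraries paired by number, or 3 beside 1 higher without both libraries numbered 3, and the median difference was -0.36. Col1a1 and Col1a2 differed by -1.12 and -0.78 and Dcn, the most abundant, by 0.10 (0.26 without both libraries numbered 3). The sums of fibroblast markers (167 to 278 and 129 to 281) and endothelial markers (36.0 to 40.9 and 31.9 to 51.6) overlapped. The part of these cells in the differences of Chrna1 and Chrnb1 was not tested.

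The genes whose values across the 10 libraries were most like those of a member were found among the 8210 genes, members left out, that were above 0 in all libraries. The measure was Pearson's r of log2 FPKM over 10 libraries of both ages, which share depth and library number, and it is given as a description. The difference between the ages was not removed, so r is also raised by a difference that 2 genes share. For Chrna1 they were Klf6 (0.956), a Krüppel-like transcription factor gene, Sik1 (0.920), for a salt-inducible kinase, and N4bp2l2 (0.918). Klf6 had mean levels of 2.14 in young and 3.19 in aged libraries, Sik1 of 0.81 and 2.30, and N4bp2l2 of 1.33 and 2.10. All of them were thus higher in aged libraries, like Chrna1. For Chrne they were Hsp90aa1 (0.899), Zmynd8 (0.890) and Ube3a (0.872). For Musk they were Smarca4 (0.961), Cmya5 (0.961) and Sort1 (0.954), and for Rapsn Fam189a2 (0.972), Itm2c (0.972) and Mif4gd (0.968).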

How the data were processed

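Per the methods, the authors purified poly-A RNA from 5 young and 5 aged gastrocnemius muscles, sequenced it with a kit that does not mark strand, mapped paired-end reads to mm10 with TopHat2 (named in the submitters' processing notes as well), computed FPKM and took its log2. The deposited table holds these log2 values of FPKM for 92251 transcript rows, 1 column for each library, with 0 for an FPKM under 1. The methods describe RefSeq genes, whereas the rows carry Ensembl and Vega transcript names, and the program that counted reads is not given in the sources used here. Rows with an empty name (233) had no gene. All 10 columns matched a label, 0 per-sample columns were left unused and 0 pairs of libraries held identical values.

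Values were used as deposited. limma 3.58.1 (lmFit and eBayes, R 4.3.3, two-sided, Benjamini-Hochberg adjustment) took in 38059 transcripts, those whose mean FPKM reached 1 when values listed at 0 were counted as FPKM 0, and was tested on simulated data. Exact permutation tests used all 252 labellings. The study's criteria used its 2-sample equal-variance test with no filter. The numbers 1 to 5 occur at both ages. Deviations from the group means of libraries of the same number had correlations of 0.131 to 0.695 (mean 0.351). Other combinations ran from -0.76 to 0.54 (mean -0.04), and all negative ones held a library numbered 3. Young libraries 1 and 5 were more like aged library 4 (0.39 and 0.54) than the aged library of their own number (0.13 and 0.21). The numbers were treated as pairs in an alternative only. The labels do not tie libraries to litters or days, so p-values measure the spread between these libraries. Depth and read numbers were recovered from the steps between values, with a tolerance of 0.02 reads, and serve only to describe precision, which for each value covers counting error alone. Positions are those of GENCODE on GRCm38. Python 3.11.15 with pandas 2.3.3 and numpy 2.4.6 was used.

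The members, lists and library 3 alternative were chosen with earlier results of these data known. Genes named were all 10 members, the genes of each related list with a limma unadjusted p under 0.05 (at most 4) and its most abundant gene, and the 3 genes most like Chrna1, Chrne, Musk and Rapsn. Myh3, Lama2, Lama4, Bgn, Ntf5, the marker genes, the genes listed at 0 and the binding factors of the promoter motifs were named outside this rule after their values were seen. Lists are described by counts and medians. Alternatives were the replicate block, other pseudocounts, filters and scalings, the mean of a gene's rows, and leaving out libraries. Small RNA data were not analysed here, and some single genes of the lists are not reported here.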

Additional observations from a re-analysis of the deposited data

Results flagged for a closer look

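Of the 16 groups of member values examined, 1 held a library far from the others. Dok7, at its transcript of 390 nucleotides, was listed at 0 in aged library 3, while the nearest other aged library was at 2.15. The gap was 0.752 of the whole range of the aged group, above Dixon's critical value of 0.71 for 5 samples, which chance passes in about 1 of 20 groups. The same library had the fewest transcripts above 0 (29878), low values in the short rows of Chrnb1 and high values in the 3′ rows of Chrne, and the part of library quality in these values was not tested.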

How the results depend on the processing

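Over 19 alternatives, 0 members had a limma adjusted p under 0.05 in each, and 2 or 3 had an unadjusted p under 0.05. Where 2 passed they were Chrna1 and Chrnb1, except with the mean of a gene's rows, where they were Chrna1 and Dok7. The added member was Chrne without aged library 1 (0.53) and Dok7 without aged library 2 (-1.15) or with quantile normalization (-0.97). The difference stayed positive for Chrna1 (0.96 to 1.43, adjusted p 0.0636 to 0.760), Chrnb1 (0.57 to 0.92, adjusted p 0.0591 to 0.981) and Chrne (0.16 to 0.54). It stayed negative for Dok7 in the 18 alternatives that held its row (-1.15 to -0.44). With log2(FPKM + 1), 0 members passed the 2-fold criteria, since the difference of Chrna1 was then 0.96. With the mean of a gene's rows, Chrnb1 was at 0.57 and Dok7 at -0.54 (limma p 0.191 and 0.0435), and the cause was not tested. The difference of Rapsn, near 0, turned to -0.038 with median-of-ratios rescaling, -0.061 with quantile normalization and -0.055 without both libraries numbered 3, and ranged from -0.14 to 0.17 with 1 library left out. With 1 library left out, that of Musk ranged from -0.19 to 0.55 and that of Lrp4 from -0.011 to 0.11.

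With the replicate block, which pairs libraries of the same number, the difference of Chrna1 was 1.33 (adjusted p = 0.422) and that of Chrnb1 0.87 (adjusted p = 0.321), and no call on a member changed, while calls on list genes did as given above. In the paired exact test the gap change from Chrna1 to Chrnb1 was -0.46 (p = 0.125). The changes were -0.94 from Chrna1 to Chrne, -1.33 from Chrna1 to Rapsn and -0.87 from Chrnb1 to Rapsn (paired exact p = 0.0625 each). With 5 pairs 0.0625 is the smallest p, so that test could call none of them. The gap alternatives were chosen after seeing the data. The change of the gap from Chrna1 to Chrnb1 lost its unadjusted call with log2(FPKM + 1) (-0.15), log2(FPKM + 0.1) (-0.42), quantile normalization (-0.39) and without both libraries numbered 3 (-0.30), and in 6 of 10 fits with 1 library left out (young 1, 3 or 4, or aged 2, 3 or 4), where it ranged from -0.54 to -0.37. That from Chrna1 to Chrne was -1.005 to -0.62 over all alternatives. That from Chrne to Chrnb1 passed 0.05 with log2(FPKM + 1) (0.47), without both libraries numbered 3 (0.70) and without aged library 3 (0.62), its lowest value with 1 library left out was 0.37, and with the mean of a gene's rows it was 0.03. That from Chrnb1 to Rapsn was -0.57 with the mean of a gene's rows and was lost there. For Chrna1 and Rapsn the range with 1 library left out was -1.52 to -1.16, and for Chrnb1 and Rapsn -1.005 to -0.66. Values below an FPKM of 1 limit what can be said of Chrnd, Chrng, Lrp4 and Agrn.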
